A study of Mus musculus with 18 samples.

Results

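The linker and variant histone genes described here are H1f0, H1f2, Macroh2a1, Macroh2a2, H2az1, H2az2, H2ax and H3f3b, which are 8 genes fixed by name. Their values were taken from every probe set that the annotation of the array pairs with one of these symbols alone. This gave 11 of the 45101 probe sets and 7 of the 8 genes, and the signal of H1f0 was not analysed here. Another 8 probe sets pair one of these genes with other genes and were not used. The tests cover the 19439 probe sets with a mean signal of at least 100 in some group, among them 10 of the 11.

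Histone genes fall into those made in S phase for the replication of chromatin, whose mRNAs as a rule end in a stem loop without a poly(A) tail, and variant genes, whose mRNAs are polyadenylated and made throughout the cell cycle. Linker histones bind the DNA between nucleosomes, and the variants replace the canonical H2A or H3 inside the nucleosome at particular sites. Trichostatin A (TSA) inhibits histone deacetylases, the enzymes that remove acetyl groups from histone tails, and the linker histone gene H1f0 is known to be induced by such inhibitors in other cells.

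RNA was hybridized to 18 Mouse Genome 430 2.0 arrays. Cells came from the ganglionic eminences of C57BL/6 mouse embryos at E15.5, were grown as neurospheres for 7 days, dissociated and plated in medium that supports neurons and astrocytes, and all groups share this history. There were 4 arrays of cells treated with 50 nM TSA for 24 h, 2 of cells treated with 10 ng/ml BMP2 for 24 h and 6 controls of 24 h, and at 6 h there were 2 TSA, 2 BMP2 and 2 control arrays. BMP2 is a secreted ligand that signals through BMP receptors. The labels name no genetic change in any group. Nothing in them tells whether replicate arrays came from separate cultures, and every SD, SE (standard error) and p-value below therefore stands for array-to-array spread, which may be technical.

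Each value below is a signal, a linear intensity of a probe set after quantile normalization, with an array median of 38.8. Log2 fold changes were computed on the signal plus 32, which understates the change of dim probe sets. The words rose and fell are kept for probe sets with an adjusted p under 0.05 from limma, adjusted by Benjamini-Hochberg over all 19439. Microarray signals of different probe sets are not compared with each other as levels. Each of the 5 markers of neural stem cells and radial glia reached 100 on at least 1 array of every group. Their summed signal was 20576 to 27010 over all arrays, while all 4 microglial markers were under 100 in every group. Both BMP2 arrays of 24 h and the controls 5 and 6 of 24 h had a signal of 703 to 2086 for Xist, against 18.4 to 75.5 on the other arrays. Fold changes of the members at 24 h are therefore also given, for TSA, against the controls 1 to 4 and, for BMP2, against the controls 5 and 6, which have a like Xist signal.

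H1f2 rose with TSA, and Macroh2a2 had the largest fall among the members. H3f3b was higher with TSA at 6 h, but its probe set passed the filter on level only through that group. The 250 bases before the start of transcription are shown for these 3 genes. They are RefSeq sequences of the build GRCm38.p6, in which 7 of the 8 genes have an entry, and are given from 5′ to 3′ on the strand of the gene. H1f2 lies at chr13:23738557-23738806 (plus strand), H3f3b at chr11:116024505-116024754 (minus strand) and Macroh2a2 at chr10:61783865-61784114 (minus strand). Capitals mark matches, on either strand, to AAACACA, known as the H1 box of linker histone genes, to the CCAAT box, to a TATA box written as TATAAA or else as TATATA, whose matches may overlap, and to the GC box written as GGGCGG.
H1f2: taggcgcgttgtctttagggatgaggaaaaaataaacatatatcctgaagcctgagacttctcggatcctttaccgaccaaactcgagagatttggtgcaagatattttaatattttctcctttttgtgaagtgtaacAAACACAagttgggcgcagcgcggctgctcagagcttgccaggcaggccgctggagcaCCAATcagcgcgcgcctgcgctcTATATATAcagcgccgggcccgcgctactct
H3f3b: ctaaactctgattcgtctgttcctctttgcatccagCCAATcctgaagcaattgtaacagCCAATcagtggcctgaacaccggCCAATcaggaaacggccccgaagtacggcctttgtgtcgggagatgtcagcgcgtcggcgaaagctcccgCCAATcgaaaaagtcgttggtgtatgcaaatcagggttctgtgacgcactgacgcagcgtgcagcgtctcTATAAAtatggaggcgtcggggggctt
Macroh2a2: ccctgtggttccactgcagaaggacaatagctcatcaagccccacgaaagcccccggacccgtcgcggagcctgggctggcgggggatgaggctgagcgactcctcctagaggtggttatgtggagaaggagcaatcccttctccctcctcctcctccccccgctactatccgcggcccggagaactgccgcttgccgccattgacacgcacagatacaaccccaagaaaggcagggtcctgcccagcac

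In H1f2 the AAACACA lies 112 to 106 bases before the start, a CCAAT at 54 to 50 and 2 overlapping copies of TATATA between 31 and 24. H3f3b holds 4 copies of CCAAT and a TATAAA at 27 to 22 bases before the start. None of these letters was found in the window of Macroh2a2, nor in that of the linker histone gene H1f0, whose signal was not analysed. Of the other members, H2az1 holds 2 and H2az2 holds 4 copies of CCAAT, and each holds 1 GC box, of which Macroh2a1 holds 2. Among 32851 promoter windows of the same length in the table, 6.25% hold the H1 box, 33.8% hold the CCAAT box, 12.4% hold TATAAA, 5.25% hold TATATA and 32.7% hold the GC box. A match describes the letters and not the binding of a factor.

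With TSA, the linker histone gene H1f2 rose and the macroH2A gene Macroh2a2 fell at both times, although leaving out single arrays ended the calls of H1f2. Macroh2a1 fell and 1 of the 2 probe sets of H2az2 rose at 24 h, H3f3b rose at 6 h, and H2az1 and H2ax did not pass at either time. After 24 h of TSA, 5 of the 10 probe sets passed the test, 3 upward and 2 downward, where 35.4% of all probe sets passed. After 6 h, 4 of the 10 passed, 3 upward and 1 downward, where 22.5% of all did. The upward count of 6 h holds the probe set of H3f3b, which passed the filter on level through the TSA arrays of 6 h alone, so that its difference there is in part fixed by the filter. With BMP2, 0 of the 10 probe sets passed at 24 h, with 3 at an unadjusted p under 0.05, and 0 at 6 h, with 0 at an unadjusted p under 0.05. Of all probe sets, 16.5% passed with BMP2 at 24 h and 1.47% at 6 h.

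**Figure D1:**
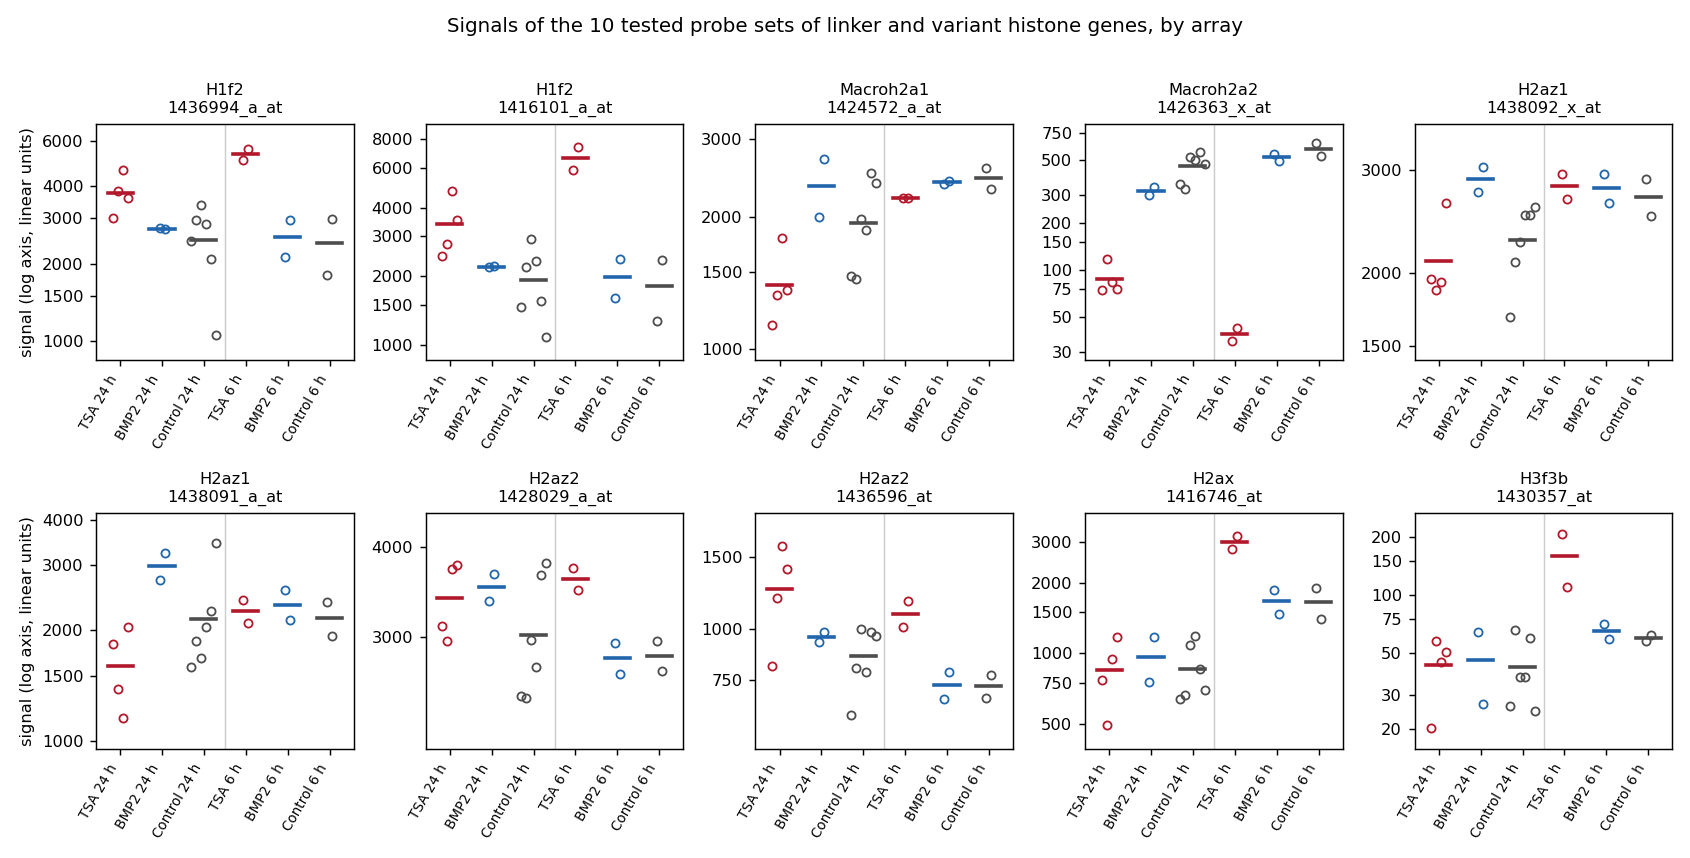
Signals of the 10 tested probe sets on each of the 18 arrays (circles, y axis logarithmic), with the mean of each group as a bar, in the order TSA, BMP2 and control at 24 h and then at 6 h. Both probe sets of H1f2 are highest in TSA at 6 h, and Macroh2a2 has means of 87.5 in TSA at 24 h and 38.7 in TSA at 6 h against 458 and 589.9 in the controls of these times.

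**Figure D2:**
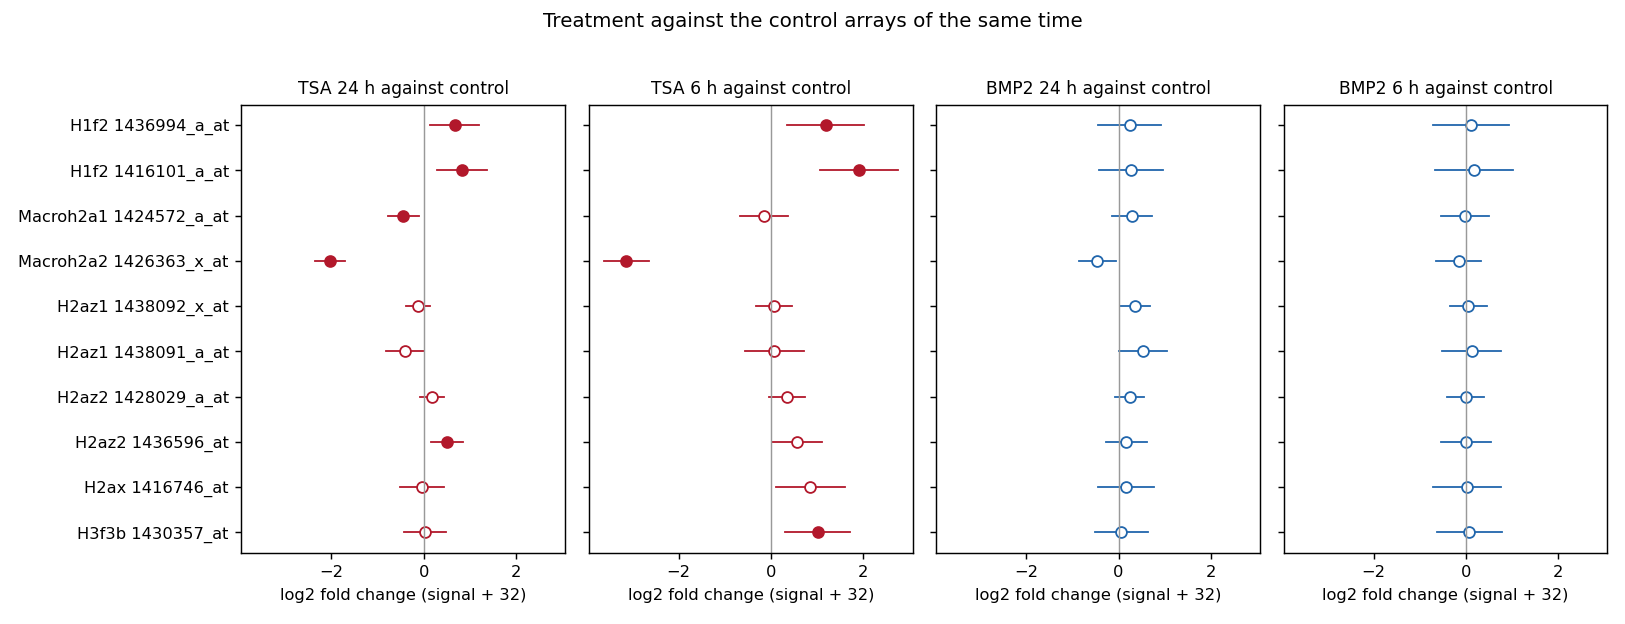
Log2 fold changes of the 10 tested probe sets against the controls of the same time (x axis), with 95% intervals as lines, for TSA and BMP2 at 24 h and 6 h. Filled circles passed an adjusted p of 0.05, which is 5 with TSA at 24 h, 4 with TSA at 6 h and 0 with BMP2.

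H1f2 encodes H1.2, a linker histone of the replication-dependent class. The labelling began with an oligo(dT) primer, so the arrays measured mainly the transcripts of this gene that carry a poly(A) tail. After 6 h of TSA, its brightest probe set (1436994_a_at) had 5052 and 5605, against 1813 and 2992 in the controls of 6 h, which is 1.18 on the log2 scale (SE 0.39, adjusted p = 0.0395). The second probe set (1416101_a_at) had 5866 and 7415 in TSA and 1278 and 2369 in the controls, which is 1.90 on the log2 scale (SE 0.40, adjusted p = 0.00311). On both, the TSA arrays lay above the controls without overlap. The rise of the brightest probe set did not pass without control replicate 1 of 6 h (adjusted p = 0.296), TSA replicate 1 (0.112) or TSA replicate 2 (0.182), and that of the second did not pass without control replicate 1 (0.0562). Without the filter on level, the brightest probe set had an adjusted p of 0.0684. Blocked on replicate number, which at 6 h rests on 2 pairs, the same 1.18 and 1.90 had adjusted p of 0.000121 and 3.51e-05. With a term for the arrays of high Xist signal they had 0.00601 and 0.00101.

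At 24 h, the brightest probe set of H1f2 had 3004, 3832, 4634 and 3598 with TSA, against 1056 at the lowest, 2652 in the median and 3373 at the highest of the 6 controls. The means were 3767 ± 675 (SD, n = 4) on the TSA arrays and 2463 ± 820.4 (SD, n = 6) on the control arrays, which is 0.68 on the log2 scale (SE 0.25, adjusted p = 0.0468), and the groups overlap. On the second probe set the means were 3390.2 ± 1019 (SD, n = 4) with TSA and 1925 ± 673 (SD, n = 6) for controls, which is 0.83 on the log2 scale (SE 0.26, adjusted p = 0.0191). The TSA array was above the control of the same replicate number in 4 of 4 pairs on both probe sets.

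Control replicate 6 of 24 h had the lowest H1f2 signal of all arrays on the brightest probe set, and against the controls 1 to 4 the log2 fold change at 24 h was 0.36 (adjusted p = 0.103), or 0.59 on the second probe set (adjusted p = 0.0778). Blocked on replicate number, the same 0.36 and 0.59 had adjusted p of 0.0094 and 0.00161. The rise at 24 h did not pass on the brightest probe set without any 1 of control replicates 1 and 5 and TSA replicates 2, 3 and 4 (adjusted p up to 0.131), and on the second without TSA replicate 3 (0.076). On the brightest it also did not pass on the deposited values (0.0682), with median scaling (0.117), without the filter on level (0.072), without the trend (0.0549) or with only the groups compared (0.0817). The pair of probe sets had r = 0.9411 over the 18 arrays. The remaining probe set of H1f2 (1438204_at) was dim, with group means from 3.86 to 14.5, and was not tested.

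With BMP2, H1f2 had 2745 and 2735 at 24 h and 2126 and 2954 at 6 h. These arrays lie within the range of the controls of their time, and the log2 fold changes were 0.24 at 24 h (95% interval -0.44 to 0.91, adjusted p = 0.648) and 0.10 at 6 h (interval -0.72 to 0.93, adjusted p = 1). Against the controls 5 and 6, the value at 24 h was 0.87 (adjusted p = 0.102), and 0.75 on the second probe set (adjusted p = 0.211). In order of the group means, H1f2 was highest in TSA at 6 h, followed by TSA at 24 h. The lowest TSA array of 6 h, at 5052, lay above the highest of 24 h, at 4634, and the other 4 groups, with means from 2402 to 2740.0, overlap.

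The macroH2A genes encode H2A variants with a large additional domain, which are known from inactive chromatin, among it the inactive X chromosome. The only single-gene probe set of Macroh2a2 (1426363_x_at) had 35.2 and 42.2 after 6 h of TSA, against 645 and 535 in the controls of 6 h. In the naming of these arrays an x before the ending marks a set in which some probes can match other transcripts, and the brightest set of H2az1 carries it too. The groups do not overlap, and the mean of the controls was 15.2 times that of the TSA arrays. The log2 fold change came to -3.13 (SE 0.23, adjusted p = 2.21e-06), the 5th lowest of the 19439 probe sets in this comparison. The signals with TSA are near the array median of 38.8, so the size of the fall is limited by the dim end of the scale, and the log2 fold change was -3.47 with 16 added to the signals and -2.67 with 64 added.

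After 24 h of TSA, Macroh2a2 had 74.1, 117, 83.4 and 75.3, against 327 at the lowest, 489.8 in the median and 568 at the highest of the controls. Again no TSA array reached a control, and the means were 87.5 ± 20.2 (SD, n = 4) on the TSA arrays and 458 ± 97.0 (SD, n = 6) on the control arrays. The log2 fold change came to -2.02 (SE 0.15, adjusted p = 1.71e-07), and the control mean was 5.24 times the TSA mean. Against the controls 1 to 4 it was -1.93 (adjusted p = 2.15e-06). In every alternative fit tried, each array left out included, this fall passed the test at both times.

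The fall of Macroh2a2 was smaller at 24 h than at 6 h. The difference between its log2 fold changes was 1.11 (SE 0.28, 95% interval 0.52 to 1.70, adjusted p = 0.0213), in a comparison where 9.85% of all probe sets passed and 1 of the 10 members did, which was this one. It did not pass without any 1 of the 4 control and TSA arrays of 6 h (adjusted p of 0.0628 to 0.113). All 4 TSA arrays of 24 h, from 74.1 to 117, lay above both of 6 h. The controls had 458 ± 97.0 (SD, n = 6) at 24 h and 589.9 ± 77.3 (SD, n = 2) at 6 h, which overlap.

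BMP2 arrays had 299 and 338 of Macroh2a2 at 24 h and 547 and 498 at 6 h. At 24 h one of them lay below all 6 controls and the other within their range, with a log2 fold change of -0.46 (95% interval -0.86 to -0.06, adjusted p = 0.111). Against the controls 5 and 6, which had 568 and 474, it was -0.65 (adjusted p = 0.0447), and in the fit with a term for the arrays of high Xist signal the same value had an adjusted p of 0.0777. At 6 h the log2 fold change was -0.16 (interval -0.66 to 0.33, adjusted p = 1). In order of the group means, Macroh2a2 ran from control at 6 h over BMP2 at 6 h, control at 24 h, BMP2 at 24 h and TSA at 24 h to TSA at 6 h, and the first 4 of these overlap with their neighbours, while each TSA group stands apart.

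Macroh2a1 (1424572_a_at) had 1136, 1325, 1785 and 1363 after 24 h of TSA, against 1439.9 at the lowest, 1919.5 in the median and 2504 at the highest of the controls. The groups overlap, and the log2 fold change came to -0.45 (SE 0.16, adjusted p = 0.0386). It was -0.27 against the controls 1 to 4 (adjusted p = 0.162) and had an adjusted p of 0.0314 when blocked on replicate number, with the TSA array below its control in 4 of 4 pairs. The call ended without any 1 of control replicates 3 to 6 and TSA replicates 1, 2 and 4 (adjusted p up to 0.128), with only the groups compared in the fit (0.0825) and without the filter on level (0.0616). At 6 h, Macroh2a1 had 2208 and 2199 with TSA and 2574 and 2308 in the controls. The arrays do not overlap, and the log2 fold change was -0.14 (95% interval -0.66 to 0.38, adjusted p = 0.736).

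With BMP2, Macroh2a1 had 1998 and 2704 at 24 h and 2372 and 2408.5 at 6 h. The log2 fold changes were 0.29 (95% interval -0.13 to 0.71, adjusted p = 0.338) at 24 h and -0.03 (interval -0.55 to 0.49, adjusted p = 1) at 6 h, and the value of 24 h was -0.07 against the controls 5 and 6.

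The change of the macroH2A genes relative to each other was compared as the log2 ratio of Macroh2a2 to Macroh2a1 on each array. This ratio was -3.58 ± 0.34 (SD, n = 4) for TSA at 24 h and -2.00 ± 0.16 (SD, n = 6) for the controls, a difference of -1.58. The TSA arrays ran from -3.98 to -3.19 and all 6 controls from -2.25 to -1.82, and the exact permutation test (two-sided) gave p = 0.00476, the smallest of its 210 divisions, and 0.019 adjusted over the 4 ratios compared, which were chosen with the values known. With BMP2 at 24 h the ratio was -2.75 ± 0.19 (SD, n = 2), which lay below all controls by a difference of -0.75 (exact p = 0.0357, the smallest possible with 28 divisions, adjusted p = 0.0508). With 2 arrays a group, the ratio was not tested at 6 h.

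**Figure D3:**
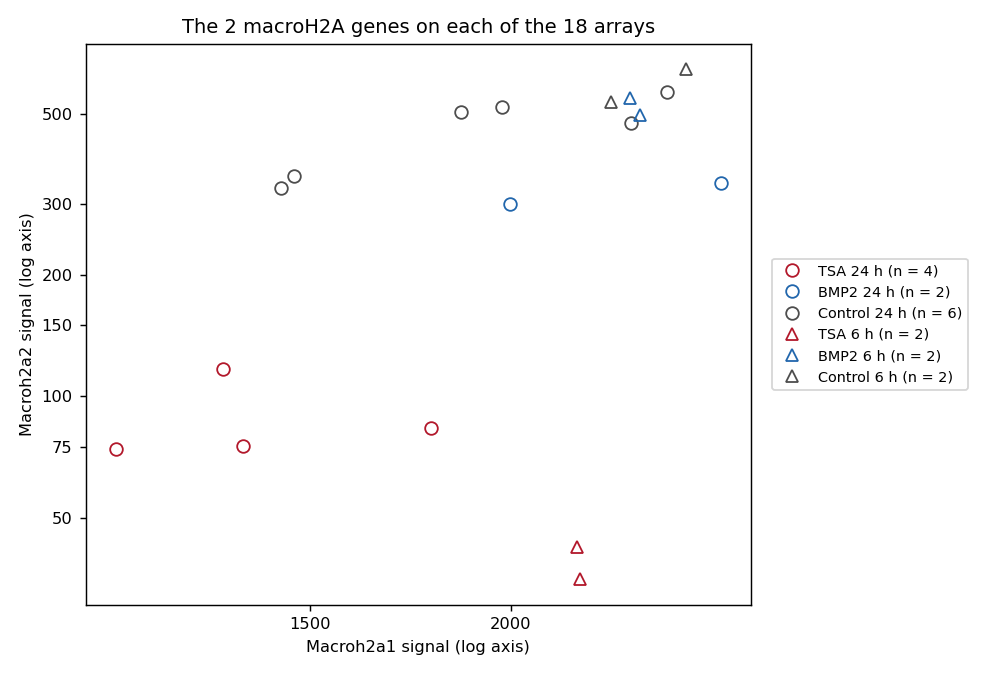
Signal of Macroh2a2 (y axis, logarithmic) against that of Macroh2a1 (x axis, logarithmic) on each of the 18 arrays, circles for 24 h and triangles for 6 h. The 6 TSA arrays lie at 117 or lower on the y axis and the other 12 at 299 or higher, while on the x axis the TSA arrays of 6 h, at 2208 and 2199, lie among the other arrays.

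H2az1 and H2az2 encode the histones H2A.Z.1 and H2A.Z.2, variants of H2A found at promoters and exchanged into nucleosomes by the SRCAP and Tip60 complexes. The brightest probe set of H2az1 (1438092_x_at) had 1948, 1869, 1930.4 and 2632 after 24 h of TSA, against 1679 at the lowest, 2382 in the median and 2589.8 at the highest of the controls. The log2 fold change was -0.11 (95% interval -0.37 to 0.14, adjusted p = 0.49), and at 6 h it was 0.06 (interval -0.34 to 0.46, adjusted p = 0.859), with groups that overlap at both times. The second probe set (1438091_a_at) gave -0.40 at 24 h (interval -0.81 to 0.01, adjusted p = 0.121) and 0.07 at 6 h (interval -0.57 to 0.70, adjusted p = 0.904). Against the controls 1 to 4, the values at 24 h were -0.025 (adjusted p = 0.902) and -0.19 (adjusted p = 0.387). The pair of probe sets had r = 0.7984 over the 18 arrays.

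BMP2 arrays of 24 h had 2749 and 3036 of H2az1 on the brightest probe set, both above all 6 controls, and 2742 and 3254 on the second, where control replicate 6 had 3443. The log2 fold changes were 0.36 (95% interval 0.03 to 0.68, adjusted p = 0.122) and 0.52 (interval 0.00 to 1.04, adjusted p = 0.157). Against the controls 5 and 6 they were 0.18 (adjusted p = 0.587) and 0.10 (adjusted p = 0.904). At 6 h the BMP2 arrays had 2945 and 2633 on the brightest probe set and the controls 2888 and 2501.

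H2az2 had 3111, 2968, 3726 and 3780.4 on its brightest probe set (1428029_a_at) after 24 h of TSA, against 2469 at the lowest, 2853 in the median and 3804 at the highest of the controls. The log2 fold change against all 6 controls was 0.18 (95% interval -0.07 to 0.43, adjusted p = 0.261). In the 4 pairs of equal replicate number every TSA array was above its control, by 0.26 to 0.47 on the log2 scale, and blocking on that number gave 0.34 (adjusted p = 0.00052). The unpaired comparison with the controls 1 to 4 gave the same 0.34 with an adjusted p of 0.00908. The controls 5 and 6, with 3662 and 3804, were the highest of the group.

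On the second probe set of H2az2 (1436596_at), the TSA arrays of 24 h had 812, 1189.6, 1594 and 1399.8, and the controls 615 at the lowest, 881 in the median and 997 at the highest. This was a rise of 0.50 on the log2 scale (SE 0.17, adjusted p = 0.0267), again with 4 of 4 pairs upward, and 0.60 against the controls 1 to 4 (adjusted p = 0.0194). The call ended without TSA replicate 3 or 4 (adjusted p up to 0.104), with median scaling (0.116) and with only the groups compared (0.0685). At 6 h the TSA arrays had 1008 and 1170.2 and the controls 679 and 769.7, without overlap, and the log2 fold change was 0.57 (95% interval 0.02 to 1.11, adjusted p = 0.129). The brightest probe set also did not overlap at 6 h, with 3746 and 3487 in TSA and 2964 and 2694 in the controls, and gave 0.35 (interval -0.04 to 0.75, adjusted p = 0.197). Blocked on replicate number, both passed at 6 h (adjusted p = 0.00461 and, for the brightest, 0.00425), as with only the groups compared (0.0132 and 0.0156). With a term for the arrays of high Xist signal only the brightest did (0.042, against 0.0982).

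With BMP2, the brightest probe set of H2az2 had 3367 and 3675 at 24 h and 2947 and 2673 at 6 h, with log2 fold changes of 0.24 (95% interval -0.08 to 0.56, adjusted p = 0.297) and -0.01 (interval -0.40 to 0.38, adjusted p = 1). The value of 24 h was -0.08 against the controls 5 and 6. The second probe set had 929 and 984 with BMP2 at 24 h, within the range of the controls, which is -0.022 against the controls 5 and 6 (adjusted p = 0.981), and 673 and 784 at 6 h. The log2 ratio of H2az2 to H2az1 was 0.69 ± 0.18 (SD, n = 4) for TSA at 24 h and 0.40 ± 0.18 (SD, n = 6) for the controls, with arrays that overlap. This difference of 0.29 had an exact permutation p of 0.0381 (two-sided), or 0.0508 adjusted over the 4 ratios, and did not pass. With BMP2 at 24 h the difference was -0.12 (exact p = 0.464). The ratios of both gene pairs were tested against all 6 controls only.

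**Figure D4:**
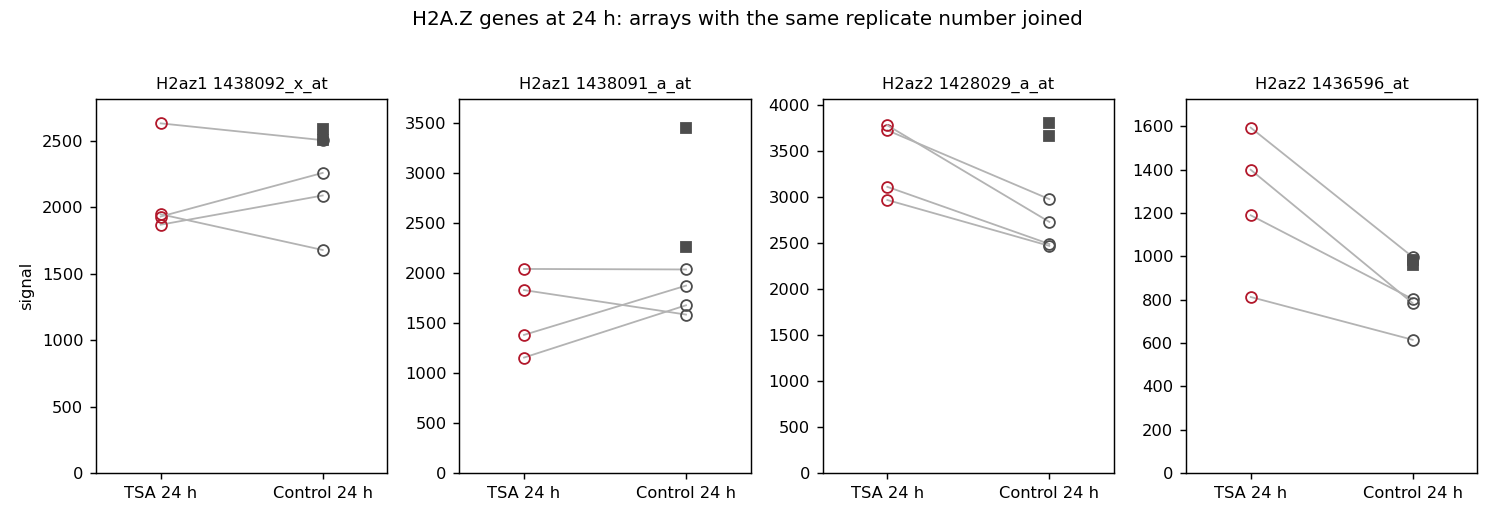
Signals of the 4 probe sets of H2az1 and H2az2 at 24 h (y axis, from 0), TSA left and control right, with the 4 pairs of equal replicate number joined and the controls 5 and 6 as squares. All 4 lines of both H2az2 probe sets run higher in TSA, while 2 of 4 do on each probe set of H2az1.

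H2ax encodes H2A.X, which is phosphorylated at sites of DNA damage, and its gene gives both a stem-loop and a polyadenylated mRNA. After 6 h of TSA its probe set (1416746_at) had 2786 and 3161, against 1898 and 1399 in the controls. The groups do not overlap, but the log2 fold change of 0.85 (95% interval 0.11 to 1.60, adjusted p = 0.0943) did not pass. The same value passed when blocked on replicate number (adjusted p = 0.0136) and with only the groups compared (0.00975). With a term for the arrays of high Xist signal it did not (0.086). At 24 h the probe set had 771, 494, 945 and 1179 with TSA, against 639 at the lowest, 778 in the median and 1185 at the highest of the controls, a log2 fold change of -0.04 (interval -0.52 to 0.44, adjusted p = 0.913). BMP2 arrays had 752 and 1174 at 24 h and 1867 and 1472 at 6 h, all within or between the controls of their time, with log2 fold changes of 0.17 (interval -0.43 to 0.78, adjusted p = 0.722) and 0.02 (interval -0.72 to 0.77, adjusted p = 1). Against the controls of like Xist signal, the values of 24 h were -0.087 with TSA (adjusted p = 0.827) and 0.27 with BMP2 (adjusted p = 0.736).

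The signal of H2ax in the controls did not overlap between the times, though the difference did not pass. All 6 controls of 24 h, with a mean of 855 ± 231 (SD, n = 6), lay below both of 6 h, with 1648 ± 353 (SD, n = 2), and the log2 difference was -0.95 (95% interval -1.55 to -0.34, adjusted p = 0.0698). In this comparison 4.39% of all probe sets passed and 0 of the 10 members did, with 1 at an unadjusted p under 0.05, which was H2ax. The 20 measured genes of histone mRNA processing and S phase had a summed signal of 9144 to 13863 in the controls of 24 h and 12605.5 to 19306 in those of 6 h. Its part in the difference of H2ax was not tested.

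H3f3b encodes the H3 variant H3.3, whose deposition does not depend on replication. Its single-gene probe set (1430357_at) was dim, and the values describe this probe set rather than the full level of the gene. It had 208 and 109 after 6 h of TSA, against 57.2 and 61.5 in the controls, without overlap. Only the TSA arrays of 6 h, with a mean of 159, brought it over the filter on level, so it was tested because it is high in that group, and its log2 fold change of 1.01 (SE 0.33, adjusted p = 0.0371) is given as a description. The call ended without control replicate 1 (adjusted p = 0.155), control replicate 2 (0.123) or TSA replicate 1 (0.318) of 6 h, and with 16 added to the signals in place of 32 (0.0556), and without the filter on level (0.0627). At 24 h, TSA arrays had 20.3 to 57.4 and controls 24.7 to 65.8, which overlap, and the log2 fold change against the controls 1 to 4 was 0.029 (adjusted p = 0.938). BMP2 arrays had 64.1 and 26.9 at 24 h and 70.2 and 58.6 at 6 h, and the value of 24 h against the controls 5 and 6 was 0.061 (adjusted p = 0.96).

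The treatments were also compared with each other. At 24 h, 4 of the 10 probe sets were lower with TSA than with BMP2 and 0 were higher, where 38.0% of all probe sets passed. For Macroh2a2 the log2 difference was -1.56 (SE 0.20, adjusted p = 3.84e-05), or -1.27 with a term for the arrays of high Xist signal (adjusted p = 0.00582). It was -0.74 for Macroh2a1 (adjusted p = 0.0133), and for the probe sets of H2az1 -0.47 (adjusted p = 0.0316) and -0.92 (adjusted p = 0.0116). All TSA arrays of 24 h have a low and both BMP2 arrays a high Xist signal, and with that term the values were -0.20 for Macroh2a1 (adjusted p = 0.658), and -0.20 (adjusted p = 0.605) and -0.29 (adjusted p = 0.6) for H2az1. The calls of Macroh2a1 and of the second H2az1 probe set also ended without BMP2 replicate 2 (adjusted p = 0.181 and 0.11), and that of the brightest H2az1 probe set without either BMP2 replicate or TSA replicates 1, 2 or 3 (up to 0.196).

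At 6 h, 3 of the 10 probe sets differed between TSA and BMP2, 2 upward and 1 downward, where 24.3% of all probe sets passed. Macroh2a2 was lower with TSA, with a log2 difference of -2.97 (SE 0.23, adjusted p = 1.43e-06). The second probe set of H1f2 was higher by 1.74 (adjusted p = 0.0049) and H3f3b by 0.94 (adjusted p = 0.0493). H3f3b was again tested only because of its level in TSA at 6 h, and without the filter on level its adjusted p was 0.0838, so its place among the 2 upward is in part fixed by the filter. The H1f2 call ended without BMP2 replicate 1 or TSA replicate 2 (adjusted p up to 0.0635), and that of H3f3b without either BMP2 replicate or TSA replicate 1 (up to 0.387), and with 16 added to the signals (0.0731). The effect of BMP2 did not differ between 24 h and 6 h for any of the 10 probe sets by limma, with 0 at an unadjusted p under 0.05, where 0.628% of all passed.

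The differences between 24 h and 6 h in the effect of TSA were negative for H1f2, at -0.50 (95% interval -1.49 to 0.48, adjusted p = 0.54) and -1.07 (interval -2.07 to -0.06, adjusted p = 0.169) on its probe sets, for H2ax, at -0.89 (interval -1.77 to -0.01, adjusted p = 0.191), and for H3f3b, at -0.98 (interval -1.81 to -0.15, adjusted p = 0.125). H3f3b was tested only because of its level in TSA at 6 h, so its difference is in part fixed by the filter on level. Negative differences were also found for Macroh2a1, at -0.30, H2az1, at -0.18 and -0.47, and H2az2, at -0.17 and -0.06 (adjusted p from 0.446 to 0.927). None of these probe sets passed in this fit. Blocked on replicate number, 3 of them passed, at -0.82 (adjusted p = 0.00588) and -1.31 (adjusted p = 0.00188) for H1f2 and -0.94 (adjusted p = 0.0348) for H2ax. The numbers were taken to pair the TSA and control arrays of 24 h, and at 6 h they rest on 2 pairs. With the term for the arrays of high Xist signal the same values did not pass (adjusted p = 0.132, 0.0547 and 0.168).

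Other histone genes were taken from fixed lists, with each gene represented by its brightest tested probe set. Of all 10588 genes tested, 38.8% passed with TSA at 24 h, 26.4% with TSA at 6 h and 17.7% with BMP2 at 24 h. Among other variant and linker histones, 3 of 10 listed genes were tested. H1f10, which encodes the replication-independent linker histone H1.10, rose with TSA at 6 h, where it had a mean of 3516 against 1418 in the controls, which is 1.30 on the log2 scale (SE 0.26, adjusted p = 0.00207). It also rose with BMP2 at 24 h, to a mean of 1125 against 578 in the controls, by 0.94 (SE 0.21, adjusted p = 0.00533), although not without either BMP2 array (adjusted p up to 0.08). H2aj, which encodes the H2A variant H2A.J, rose with TSA by 0.49 at 24 h (adjusted p = 0.00806) and by 0.60 at 6 h (adjusted p = 0.0418), the second not without any 1 of the 4 arrays compared (up to 0.221) or without the filter on level. The last of them, Cenpa, which encodes the centromeric H3 variant, did not pass in these comparisons and had means of 112 with TSA and 212 in the controls at 24 h (adjusted p = 0.0693).

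Of 9 listed replication-dependent histones, 4 were tested, and their probe sets can share sequence with near-identical copies, so single genes are uncertain. With TSA at 24 h, 0 rose and 2 fell. H2ac19 had a mean of 388 with TSA and 782 in the controls, which is -0.95 on the log2 scale (SE 0.12, adjusted p = 2.69e-05). H2bc22 fell by 0.41 (adjusted p = 0.0339), though not without any 1 of control replicates 1 to 4 and TSA replicates 1 to 3 (up to 0.112), on the deposited values, without the filter on level or with only the groups compared. At 6 h, 1 rose and 0 fell, which was H3c4 at 0.99 (adjusted p = 0.0124, or up to 0.154 without control replicate 1 or TSA replicate 2). It had a mean of 190 with TSA and 80.3 in the controls. Of the groups compared only TSA reached the filter on level, though the rise also passed without that filter. The list had a median log2 fold change of -0.29 at 24 h and 0.43 at 6 h, where the medians of all genes were -0.02 and 0.02. With BMP2 at 24 h 0 of the 4 passed by limma, with 0 at an unadjusted p under 0.05.

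Histone chaperones and exchange factors carry histones to and from chromatin, and 28 of 33 listed genes were tested. With TSA at 24 h, 1 rose and 6 fell, and the median log2 fold change was -0.20. Nasp, a chaperone of H3 and linker histones, fell to a mean of 445 against 968 in the controls, by 1.06 on the log2 scale (SE 0.12, adjusted p = 8.45e-06). Kat5, the acetyltransferase of the Tip60 complex, fell by 0.65 at 24 h (adjusted p = 0.000736) and by 0.82 at 6 h (adjusted p = 0.00621). Srcap, the ATPase that exchanges H2A.Z into nucleosomes, fell by 0.50 (adjusted p = 0.00157) and by 0.67 (adjusted p = 0.00722), the second not without control replicate 2 or TSA replicate 1 of 6 h (up to 0.0817). Hmgn3, a nucleosome-binding protein, rose by 0.46 at 24 h (adjusted p = 0.00502).

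At 6 h of TSA, 1 of these 28 genes rose and 4 fell. Atrx, which places H3.3 together with Daxx, had a mean of 1043 with TSA and 1933 in the controls, which is -0.87 on the log2 scale (SE 0.17, adjusted p = 0.00224). Asf1b, a chaperone of H3 and H4, rose by 1.47 (adjusted p = 0.0307), though not without control replicate 2 or either TSA array (up to 0.28), or without the filter on level. With BMP2 at 24 h, 1 rose and 4 fell. Cabin1, which belongs to the HIRA complex of H3.3 deposition, had a mean of 462 with BMP2 and 166 in the controls, which is 1.34 on the log2 scale (SE 0.21, adjusted p = 0.000305). Nap1l1, Npm1 and Ruvbl2 fell by 0.49, 0.29 and 0.57 (adjusted p = 0.01, 0.016 and 0.0293), each not without either BMP2 array, Ruvbl2 also not without control replicates 3 or 4 (up to 0.193). Against the controls 5 and 6, neither Npm1 nor Ruvbl2 passed, and Ruvbl2 had -0.44 with the term for the arrays of high Xist signal (adjusted p = 0.217) and did not pass with only the groups compared, nor Npm1 without the trend.

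Of 21 listed genes of histone mRNA processing and S phase, 19 were tested. With TSA at 24 h, 0 rose and 6 fell, with a median log2 fold change of -0.15. Pcna, the sliding clamp of replication, had a mean of 1643 with TSA and 2661 in the controls, which is -0.68 on the log2 scale (SE 0.12, adjusted p = 0.00047). Mcm5 and Mcm7, subunits of the replicative helicase, fell by 1.78 (adjusted p = 0.00431) and 0.67 (adjusted p = 0.0108). At 6 h of TSA, 1 rose and 0 fell, which was Casp8ap2, a factor of histone pre-mRNA processing, at 0.64 (adjusted p = 0.00789, up to 0.095 without control replicate 2 or TSA replicate 1). With BMP2 at 24 h, 0 of the 19 passed by limma, with 2 at an unadjusted p under 0.05. With BMP2 at 6 h, where 1.79% of all genes passed, 0 genes of these 4 lists passed, with 1 at an unadjusted p under 0.05, which was H1f10. With the term for the arrays of high Xist signal, each list gene named here for 24 h except Ruvbl2 still passed (adjusted p up to 0.0454, for H1f10 with BMP2). Each of these lists was read against the shares of all genes given above, and nothing is particular to a list from its counts.

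Summed signals of cell type markers differed between the groups, with no test of these sums. Of 8 oligodendrocyte lineage markers 7 were measured, and each reached 100 on at least 1 array of every group. Their summed signal was 14370 to 21672 with TSA and 11405 to 12200 with BMP2 at 24 h, against 30072 to 37383 in the controls of 24 h. At 6 h it was 22696 to 23030 with TSA and 26050.0 to 28249 with BMP2, against 35990 to 37308 in the controls. The 4 measured proliferation markers summed to 1977 to 3171 with TSA at 24 h and 2762 to 4299 in the controls, which overlap. By limma, 0 of these 4 rose and 2 fell. The 5 neuronal markers summed to 2989 to 3448 with TSA and 4453 to 6560 in the controls, which do not overlap. Of these 5, 1 rose and 3 fell by limma, where 38.8% of all genes passed. At 6 h the neuronal markers summed to 3491 to 4366 with TSA and 4887 to 5643 with BMP2, against 6078 to 7316 in the controls, and the 5 astrocyte markers to 8034 to 8942 with TSA and 10345.5 to 11801 with BMP2, against 11189.5 to 11920 in the controls, so TSA lay below the controls on both and BMP2 on the neuronal sum. At 24 h the astrocyte sums were 11466 to 16008 with TSA and 9369 to 11055 with BMP2, against 10437 to 15506 in the controls, which overlap. Of the 5 astrocyte markers, 0 rose and 2 fell by limma with TSA at 24 h, and the same counts held with BMP2. The 5 neural stem and radial glia markers summed to 24958 to 27010 with TSA and 24834.5 to 24970 with BMP2 at 24 h. The controls had 22446 to 24634, below both. At 6 h the sums were 20576 to 21469 with TSA and 21235 to 21298 with BMP2, below the 22246 to 22360 of the controls. Of these 5, 2 rose and 1 fell by limma with TSA at 24 h, and 1 rose and 0 fell with BMP2. The shares of all genes that passed at 24 h were 38.8% with TSA and 17.7% with BMP2. Among endothelial markers 3 of 4 were under 100 at 24 h of BMP2, and the sum was 308 to 346 there, against 112 to 152 in the controls. In such bulk samples fewer cells of a type and less RNA per cell cannot be told apart, and the part of these shifts in the changes of the histone genes was not tested.

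Across the 18 arrays, the genes whose log2 signals were most like those of each member were named by Pearson's r among 10587 other genes, as a description in which arrays share treatments and times. For Macroh2a2 these were Epc1 (r = 0.9645), Mex3b (0.9639) and Vps51 (0.9618). For H2ax they were Fzr1 (0.9613), Rhot2 (0.9352) and Taf6l (0.935), and for Macroh2a1 Rnf166 (0.9486), U2af1 (0.9373) and Mllt1 (0.9259). For H2az1 they were Tpx2 (0.9358), Drap1 (0.9236) and Cks2 (0.9124), for H2az2 Efna4 (0.9352), Borcs6 (0.9084) and Mtbp (0.8923), and for H1f2 Tor1aip2 (0.8969), Zfand6 (0.8837) and Homez (0.8836). For the dim H3f3b probe set they were Mroh1 (0.8713), Odf2 (0.8503) and Fbxo42 (0.8466). Between members, r ran from -0.7337 for H1f2 and Macroh2a2 to 0.758 for Macroh2a1 and H2az1.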

How the data were processed

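Total RNA of 18 samples was labelled from an oligo(dT) primer and hybridized to Mouse Genome 430 2.0 arrays. Per the labels and the value table, the authors' deposited values are linear intensity, with 1 value for each probe set and array. The submitters' notes name MAS5 (version not given), and the methods name dChip with a rank-based normalization, so which of these made the deposited intensity is unsure. Deposited medians of the arrays were 35.4 to 41.6. The number of arrays limits the precision.

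Quantile normalization was applied across arrays, 32 was added before log2, and probe sets whose mean reached 100 in some group (64 control probe sets left out) were fitted in 1 model of the 6 groups with limma 3.58.1 in R 4.3.3, eBayes with trend and Benjamini-Hochberg adjustment within each of 9 comparisons at 0.05. The fit was run on simulated data with independent normal noise for each probe set, without replicate pairs or a difference in Xist. That run does not bear on calls that depend on either. The symbols come from the annotation of the array, which pairs 34958 probe sets with 1 gene, 932 with several and 9211 with none. The brightest probe set represents a gene. The members, gene lists and tests were chosen with earlier results of these data known. Members are named with all probe sets, and list genes as up to 3 called in each direction with the smallest adjusted p for TSA at 24 h, TSA at 6 h and BMP2 at 24 h, and per member the 3 genes of highest r.

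At 24 h, residuals of TSA arrays and the controls of equal replicate number in the labels correlated at 0.407, 0.57, 0.436 and 0.281, so these numbers were taken to pair the arrays. For TSA replicate 4, however, a control of another number correlated more highly. For BMP2 and controls of 24 h the correlations were 0.00311 and -0.13. At 6 h there are 2 numbers, with correlations of 0.567 to 0.713, and with 2 arrays a group both numbers give the same value. Alternatives were the replicate number as a block, a term for the arrays of high Xist signal (over 200) or controls of like Xist signal, the deposited values, median scaling, other pseudocounts, no filter, no trend, averaging a gene's probe sets, a fit of only the groups compared, the study's thresholds (a ratio over 2, a difference over 100 and an unadjusted p under 0.1) and each array left out. RT-PCR, western blots, stainings and probe sets shared with other genes were not used here.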

Additional observations from a re-analysis of the deposited data

Results flagged for a closer look

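Among 20 combinations of a probe set and a group of 4 or 6 arrays, 2 held an array far from the others of its group by Dixon's test, where chance gives about 1 in 20. These were TSA replicate 4 of 24 h on the brightest H2az1 probe set, with a signal of 2632 where the other 3 had 1869 to 1948, and control replicate 6 of 24 h on the second H2az1 probe set, with 3443 where the next had 2255.

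The effect of TSA on Macroh2a2 differed between the times, by 1.11 on the log2 scale between 24 h and 6 h (standard error 0.28, adjusted p = 0.0213 from limma), with a smaller fall at 24 h. Without control replicate 1 of 6 h the difference was 0.98 (adjusted p = 0.113).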

How the results depend on the processing

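Each gene's values were recomputed under the alternatives, 908 in all, of which 786 kept direction and side of the threshold, 50 kept only the direction and did not pass, 30 newly passed and 42 changed sign, the last all for values that did not pass the test. These 908 include the block within each time for the controls of 24 h against 6 h, which that fit cannot compare. The number of arrays and the dim range near the array median limit the precision, H1f0 was not analysed here, and the cause of each change below was not tested unless it is fewer arrays.

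Of the 10 member probe sets, 5 passed for TSA at 24 h. This was 3 with the term for the arrays of high Xist signal, 3 without a filter, 2 with only the groups compared, 3 with controls of like Xist signal and 1 by the study's thresholds, and 2 to 5 with an array left out. For TSA at 6 h, 4 passed, against 7 with a replicate block over all times or within each time, which adds H2ax (adjusted p = 0.0136 over all times) and both probe sets of H2az2 (0.00425 and 0.00461), 2 without a filter, 7 with only the groups compared and 1 to 3 with an array left out. For BMP2 at 24 h, 0 passed, against 5 with either replicate block, 1 with controls of like Xist signal and 0 to 1 with an array left out. Residuals of these BMP2 arrays and the controls of equal number correlated at only 0.00311 and -0.13. The block there sets BMP2 arrays of high Xist signal against controls 1 and 2 of low Xist signal. With it Macroh2a1 was 0.65, against -0.069 with the Xist term. The same limit holds for each block count below that includes BMP2 at 24 h. For TSA against BMP2 at 24 h, 4 passed, against 7 with either block, 1 with the Xist term, 1 by the study's thresholds and 1 to 4 with an array left out. Residuals of the TSA and BMP2 arrays of equal number correlated at -0.184 and -0.113 there. At 6 h, 3 passed, against 6 with the block, 7 with the block within each time, 5 with the Xist term, 7 with only the groups compared and 1 to 2 with an array left out. The TSA effect differed between the times for 1 probe set, against 4 with either block, which adds both probe sets of H1f2 and H2ax. It was 0 to 1 with an array left out. The BMP2 effect differed for 0, against 3 with either block. The controls differed for 0, against 3 with the block over all times and 0 to 1 with an array left out. No block within each time holds arrays of both times, so that fit cannot compare these controls and its count is left out. At TSA 24 h, where the numbers were taken to pair the arrays, the block changed the call of 1 member probe set, the brightest of H2az2, which then passed.

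None of the values that changed sign had passed the test. For BMP2 at 24 h, Macroh2a1, 0.29 as reported, was -0.069 and H2az2, 0.24 as reported, was -0.085, both with the Xist term and with controls of like Xist signal. For TSA against BMP2 at 24 h, the probe sets of H1f2, at 0.44 and 0.56, were -0.51 and -0.16 with the Xist term, where both BMP2 arrays but no TSA array have a high Xist signal. For BMP2 at 6 h, Macroh2a1 was 0.0015 on the deposited values and 0.0056 with median scaling, and H2az2 0.0080 and 0.012. Between the controls of 24 h and 6 h, H1f2 was 0.19 with the block, 0.31 with the Xist term, 0.0032 on the deposited values, 0.091 with median scaling and 0.030 as the mean of its probe sets. H2az2 was -0.21 with the block and -0.087 with the Xist term. With an array left out, TSA at 24 h gave -0.21 to 0.19 for H2ax and -0.063 to 0.20 for H3f3b, TSA at 6 h -0.041 to 0.16 for H2az1, and BMP2 at 24 h -0.14 to 0.48 for H2ax and -0.30 to 0.41 for H3f3b. BMP2 at 6 h gave -0.25 to 0.46 for H1f2, -0.11 to 0.050 for Macroh2a1, -0.052 to 0.15 for H2az1, -0.079 to 0.060 for H2az2, -0.19 to 0.24 for H2ax and -0.011 to 0.16 for H3f3b, and H1f2 between the controls -0.36 to 0.35.

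Over all probe sets, the alternatives called 1564 to 8986 for TSA at 24 h (6878 as reported), 1866 to 8424 at 6 h (4378), 1226 to 9084 for BMP2 at 24 h (3214) and 94 to 686 at 6 h (286). For TSA against BMP2 they called 2506 to 10688 at 24 h (7396) and 2073 to 8530 at 6 h (4724), between the times 430 to 5043 for the TSA effect (1915) and 48 to 4037 for the BMP2 effect (122), and 7 to 4678 between the controls (854). The last range includes the block within each time, which cannot compare the controls of 24 h and 6 h.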
